A study of Homo sapiens with 8 samples.

Results

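The protocadherins of a human skin carcinoma line were followed after the histone methyltransferase EZH2 was targeted with Cas9. Every row of the deposited count table whose symbol begins with PCDH was taken, which gave 66 of the 20294 genes. By symbol, 15 belonged to the alpha cluster (PCDHA), 16 to the beta cluster (PCDHB), 22 to the gamma cluster (PCDHG) and 13 were non-clustered genes. Of the 66, 19 had enough counts to be tested: 1 alpha, 4 beta, 8 gamma and 6 non-clustered genes. The other 47 were below the filter on low counts, and 17 of these had 0 counts in all 8 libraries.

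HSC-5 is an established line from a human cutaneous squamous cell carcinoma. All groups stably expressed Cas9, which had been brought in by a lentivirus, and all went through G418 selection ahead of RNA extraction. The control group carried an empty vector (2 libraries), and the other groups carried the guide RNA sgEZH2-1 (3 libraries) or sgEZH2-2 (3 libraries), both directed at EZH2. The labels name no clones and do not state whether replicate libraries stem from separate cultures; p-values therefore rest on the spread among these samples, part of which may be technical. The authors omitted a further control library that clustered apart (not used here), and the spread of the 2 remaining controls may understate the true one.

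Protocadherins are the largest group of cadherins, the calcium-dependent adhesion proteins of the cell surface. The alpha, beta and gamma genes lie side by side on chromosome 5. Each alpha and gamma transcript joins a variable first exon, which has its own promoter, to constant exons at the end of the cluster, whereas each beta gene is a single exon without constant exons. In neurons a small set of these promoters is chosen in each cell, with the help of the insulator protein CTCF and of cohesin, and the remaining promoters are held silent by DNA methylation. Non-clustered protocadherins, such as the delta group, are scattered over the genome and signal to actin through their cytoplasmic tails. EZH2 is the enzyme of Polycomb repressive complex 2, whose methylation of lysine 27 on histone H3 holds many developmental genes in a silent state.

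Between 12.6 M and 15.5 M counts were available per library, and levels are given as CPM, counts relative to the library total, on library totals scaled by the TMM method of edgeR. At this depth 3 counts, taken as the ceiling for a count of 0, corresponded to 0.196 to 0.236 CPM in a single library. The targeted transcript itself, EZH2, stood at 82.7 and 84.1 CPM in the controls. It stood at 56.4, 56.3 and 48.0 CPM with sgEZH2-1 and at 73.9, 67.6 and 65.1 CPM with sgEZH2-2, so all guide libraries were below both controls. The fall passed the test with sgEZH2-1 (log2 fold change -0.64, adjusted p = 0.000529) and not with sgEZH2-2 (-0.28, adjusted p = 0.0699). A Cas9 cut need not lower the transcript, so these values check the labels only in part. Of 12 keratinocyte markers, 11 were at 71.7 CPM or more in every library, and KRT14 alone was low, at 0.236 to 1.6 CPM.

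A few genes carried nearly all protocadherin RNA of these cells. PCDH7, PCDH1 and PCDHGC3 together held 91.5% and 91.8% of the family's counts in the controls, 87.7%, 89.8% and 90.4% with sgEZH2-1, and 84.8%, 87.1% and 86.9% with sgEZH2-2. These shares were below both control values in each of the 6 guide libraries. They hold the fall of PCDH7 and the rise of PCDH20 given below, so they are not a separate result, and they were not tested. The summed level of all 66 genes was 451 and 445 CPM in the controls, 406, 417 and 427 CPM with sgEZH2-1, and 427, 449 and 452 CPM with sgEZH2-2. The control level of each gene, from all its counts, was also divided by the length of exon shared with no other gene. It was 29.9 CPM per kb for PCDHGC3, 24.5 for PCDH1 and 13.8 for PCDH7. Well below these were PCDHGB7 at 1.56, PCDHGA9 at 1.36 and PCDH19 at 1.19. PCDH20, with only 201 unshared bases, is not ranked on this measure. Reads on unshared exon were not counted apart, so any reads of constant exons given to PCDHGC3 would raise its value. With the length of its constant exons included, PCDHGC3 came out at 17.9 CPM per kb, so its place relative to PCDH1 depends on the length used. Only 16 of the 66 genes averaged at least 1 CPM over the 8 libraries, and 27 had a count in every library.

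**Figure D1:**
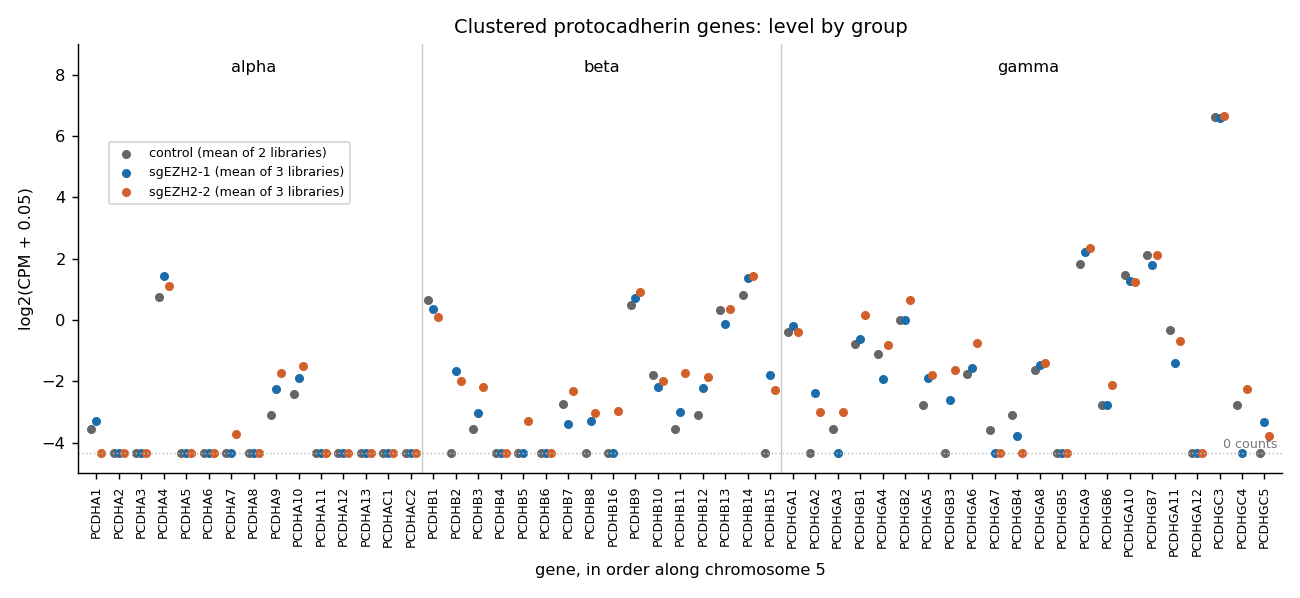
Mean level of each of the 53 clustered genes on a log2(CPM + 0.05) scale, in order along chromosome 5, with 1 point per group. PCDHGC3 stands near 100 CPM in all 3 groups, above every other clustered gene, and the 14 genes with all 3 points on the dotted line had 0 counts in every library.

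The alpha cluster was nearly silent. Of its 15 genes, 10 had 0 counts in all libraries, including both C-type genes PCDHAC1 and PCDHAC2, which take their name from their likeness to the C-type genes of the gamma cluster. PCDHA4 was the only alpha gene with enough counts to test. Among the others, PCDHA10 had 25 counts, PCDHA9 had 19, PCDHA1 had 3 and PCDHA7 had 1 over all 8 libraries. In the beta cluster 14 of 16 genes had a count in at least 1 library, but only 6 had a count in all 8, and PCDHB4 and PCDHB6 had none. In the gamma cluster only PCDHGA12 and PCDHGB5 had no count, and PCDHGC3 exceeded the summed level of the other 21 genes in every library.

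Counting bears on these levels. The annotation gives all gamma genes the same 2181 bases of constant exons and the alpha genes 2866 such bases. Several members of both clusters had 0 counts, so reads from constant exons were not counted for every member. Whether those reads were left out or given to a single gene such as PCDHGC3 cannot be told from the table. Parts of the variable exons are also close copies of each other, so the split of reads between neighbouring clustered genes is uncertain.

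The letters of the promoters show what neighbours in a cluster have in common whether or not they were transcribed here. RefSeq promoters (build GRCh38, 250 bases before the start site to 50 after it) were matched for 58 of the 66 genes; PCDH10, PCDH20, PCDHA13, PCDHA3, PCDHB11, PCDHB6, PCDHGA12 and PCDHGC5 had no entry. Most clustered promoters are known to carry a conserved sequence element with the letters CGCT, a place where CTCF binds. In each cluster the 8-letter word around CGCT that most of its promoters share was searched on both strands. The word ATGTCGCT stood in 9 of 13 alpha promoters, and in 0.234% of all 35116 promoters in the table. GTGGCGCT stood in 13 of 14 beta promoters, all but that of PCDHB1, and in 1.15% of all promoters. GNCGCTGT stood in 17 of 20 gamma promoters and in 4.35% of all promoters. Since each word was picked for its frequency in these same promoters, the shares are a description. The 30 bases around the element are shown for the highest gene of each cluster and for a gene without counts, with CGCT in capitals; all are on the plus strand of chromosome 5.
PCDHA4 (chr5:140806983-140807012): gccacatgatgtCGCTctttaccacaaaat
PCDHA8 (chr5:140841134-140841163): gccacatgatgtCGCTgtctaccaagaagt
PCDHB14 (chr5:141223267-141223296): gacacatggtggCGCTacaggataagacga
PCDHB4 (chr5:141121727-141121756): gacgcagggtggCGCTgcaggctaagttgt
PCDHGC3 (chr5:141475884-141475913): gactctgtgtgcCGCTgtcggccaatgaag
PCDHGB5 (chr5:141397867-141397896): gactctgggcgcCGCTgttggccaaagtgc
PCDHA8, PCDHB4 and PCDHGB5 had 0 counts in every library although their windows hold the same word as those of their transcribed neighbours. The data hold no measure of CTCF binding or of DNA methylation.

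CpG pairs, the sites of DNA methylation, were more numerous in most C-type promoters than in most other clustered promoters. Over the 250 bases before the start site, the 4 matched C-type genes (PCDHAC1, PCDHAC2, PCDHGC3 and PCDHGC4) held 13 to 22 CpG pairs with a median of 16.5. The other 43 clustered genes held 2 to 18 with a median of 5, and all 35116 promoters had a median of 11 with quartiles of 3 and 23. For genes with several start sites the entry with the most CpG pairs was used. A CpG-rich promoter was not a mark of a high level: PCDHGC3 was near 100 CPM, whereas PCDHAC1 and PCDHAC2 had 0 counts and PCDHGC4 had 10 counts over all libraries. The non-clustered genes ranged from 5 to 21 pairs with a median of 11. PCDH1, at about 145 CPM, had 6, and PCDH9, at about 1 CPM, had 20. The matched PCDH1 entry (chr5:141869628-141869877, minus strand) lies inside the gene, which in the annotation begins at 141879246. Which PCDH1 start site was in use was not tested. The promoters of PCDHGC3 (15 pairs, 60.0% G and C) and of the 2 non-clustered genes with a matched promoter whose level changed, PCDH7 (10 pairs, 59.6%) and PCDH19 (21 pairs, 72.0%), are shown 5′ to 3′ on the strand of the gene, with each CG in capitals.
PCDHGC3 (chr5:141475716-141475965, plus strand): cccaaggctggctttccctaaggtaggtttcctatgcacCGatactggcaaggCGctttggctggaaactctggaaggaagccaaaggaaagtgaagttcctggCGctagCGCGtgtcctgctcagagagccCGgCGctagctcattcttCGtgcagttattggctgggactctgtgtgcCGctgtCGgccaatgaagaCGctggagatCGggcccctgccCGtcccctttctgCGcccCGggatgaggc
PCDH7 (chr4:30720119-30720368, plus strand): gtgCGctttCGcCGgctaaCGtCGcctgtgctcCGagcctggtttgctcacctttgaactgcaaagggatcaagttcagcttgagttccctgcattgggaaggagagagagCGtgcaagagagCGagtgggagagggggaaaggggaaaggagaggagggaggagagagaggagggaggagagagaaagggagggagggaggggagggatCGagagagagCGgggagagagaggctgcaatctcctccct
PCDH19 (chrX:100410274-100410523, minus strand): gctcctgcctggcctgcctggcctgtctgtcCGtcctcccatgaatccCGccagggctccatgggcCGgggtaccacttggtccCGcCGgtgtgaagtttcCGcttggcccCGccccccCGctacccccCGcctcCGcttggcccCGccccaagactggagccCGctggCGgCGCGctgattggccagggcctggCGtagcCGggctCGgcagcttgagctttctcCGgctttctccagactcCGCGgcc

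**Figure D2:**
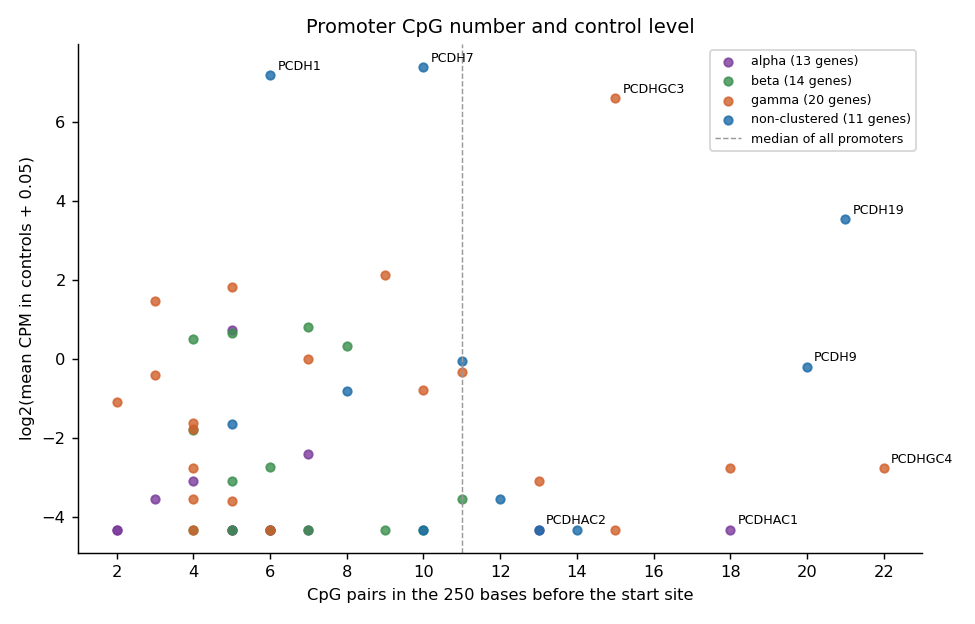
Number of CpG pairs in the 250 bases before the start site (horizontal) against the mean control level on a log2(CPM + 0.05) scale (vertical), 1 point for each of the 58 matched genes, coloured by cluster; the dashed line is the median of all promoters, 11. PCDHGC3 and the C-type genes PCDHAC1 and PCDHAC2 lie at similar CpG numbers and at opposite ends of the level scale.

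To ask which genes respond to the targeting of EZH2, the 6 guide libraries were first pooled and compared with the 2 controls. Of the 19 protocadherins tested, PCDH20 rose and PCDH7 fell. Over all 13124 genes tested, 4.36% passed the same threshold, 3.76% higher and 0.594% lower. The median log2 fold change of the 19 was 0.33 for both guides, 0.014 with sgEZH2-1 and 0.15 with sgEZH2-2, against -0.004, -0.009 and 0.001 for all genes. In sgEZH2-1 against control PCDH20 again rose and PCDH7 fell, where 20.8% of all genes passed (11.3% higher, 9.51% lower). In sgEZH2-2 against control PCDH20 and PCDH19 rose and PCDH7 fell, where 8.68% of all genes passed (6.18% higher, 2.5% lower). Between the guides PCDH19 and PCDH20 were higher with sgEZH2-2, where 21.9% of all genes differed (11.5% higher, 10.4% lower). All 3 are non-clustered genes, and the share of the 19 that passed in each comparison was not tested against the rest of the genes. These comparisons share their control libraries.

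PCDH20, a protocadherin known mainly from the nervous system and as a gene often silenced by methylation in tumours, went from close to 0 to a moderate level (chromosome 13, 61409685 to 61415522, minus strand, GRCh38). It had 7 and 5 counts in the controls, 76, 56 and 58 counts with sgEZH2-1, and 165, 131 and 122 counts with sgEZH2-2. These correspond to 0.497 and 0.326 CPM in the controls, 5.87, 3.83 and 4.06 CPM with sgEZH2-1, and 11.4, 10.3 and 9.31 CPM with sgEZH2-2. The 3 groups did not overlap, and the order was control, sgEZH2-1, sgEZH2-2. All 6 guide libraries were above both controls, as were those of 10.2% of all genes tested. The share of genes with all 3 groups apart was not counted. Group means were 0.412 ± 0.121 CPM (SD, n = 2), 4.59 ± 1.12 CPM (SD, n = 3) and 10.3 ± 1.04 CPM (SD, n = 3), so the guide groups averaged 11.1 and 25.1 times the control. The log2 fold change in the quasi-likelihood test of edgeR was 4.16 (SE 0.65, adjusted p = 0.00536) for both guides, 3.45 (SE 0.33, adjusted p = 7.91e-05) for sgEZH2-1 and 4.63 (SE 0.3, adjusted p = 1.75e-05) for sgEZH2-2. The guides themselves differed by 1.18 (SE 0.18, adjusted p = 0.00142). The EZH2 transcript also stood higher with sgEZH2-2 than with sgEZH2-1 (0.36, adjusted p = 0.00844). A link between the EZH2 and PCDH20 levels was not tested.

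The call for PCDH20 with both guides pooled was lost when either control was left out, while the log2 fold change stayed at 4.48 without control 1 (adjusted p = 0.0754) and 3.88 without control 2 (adjusted p = 0.101). The adjusted p ranged from 4.07e-10 to 0.101 over all alternatives. A fit with 1 control assumes that the lone library varies like the guide libraries. With each guide alone, and between the guides, PCDH20 passed under every alternative run. Of the 4778 exonic bases that GENCODE release 29 gives to PCDH20, all but 201 are shared with the overlapping gene AL592490.1. The row of AL592490.1 held 0 counts in both controls, 11, 11 and 0 with sgEZH2-1 and 0, 0 and 3 with sgEZH2-2, so how reads were divided between these genes is uncertain. Per kb of all its exons, PCDH20 was at 0.0861 CPM in controls and 2.16 CPM with sgEZH2-2, above the 1.86 of PCDH19 there.

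PCDH7, a delta protocadherin, was the protocadherin with the highest CPM in the controls and the only one that fell (chromosome 4, 30720415 to 31146805, plus strand, GRCh38). It stood at 165 and 172 CPM in the controls, 128, 131 and 130 CPM with sgEZH2-1, and 134, 142 and 146 CPM with sgEZH2-2. All 6 guide libraries were below both controls, as were those of 9.74% of all genes tested. The means were 168 ± 4.38 CPM (SD, n = 2), 129 ± 1.52 CPM (SD, n = 3) and 141 ± 6.48 CPM (SD, n = 3), or 0.767 and 0.835 times the control. The log2 fold change was -0.32 (SE 0.066, adjusted p = 0.0232) for both guides, -0.38 (SE 0.055, adjusted p = 0.00085) for sgEZH2-1 and -0.26 (SE 0.055, adjusted p = 0.0154) for sgEZH2-2. Between the guides the difference of 0.12 did not pass (adjusted p = 0.105, 95% interval 0.02 to 0.22, unadjusted and from 1.96 SE each way).

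This fall was close to the threshold. With both guides pooled it no longer passed without control 1 (adjusted p = 0.166), control 2 (0.215), sgEZH2-1 library 2 or 3 (0.0674 and 0.0581) or sgEZH2-2 library 1 (0.0623), against a range of 0.00107 to 0.215 over the alternatives. With sgEZH2-2 alone PCDH7 no longer passed without control 1 (0.0592), control 2 (0.0949) or sgEZH2-2 library 1 (0.066), against a range of 0.00567 to 0.0949. With sgEZH2-1 alone PCDH7 passed under every alternative. In bulk RNA, fewer cells of a type and less RNA per cell cannot be told apart.

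PCDH19, a delta protocadherin of the X chromosome that acts in neuronal adhesion, moved with sgEZH2-2 alone (chromosome X, 100291644 to 100410273, minus strand, GRCh38). It stood at 12.6 and 10.5 CPM in the controls and at 10.6, 11.8 and 10.8 CPM with sgEZH2-1, and these groups overlapped. With sgEZH2-2 it stood at 18.4, 18.1 and 17.9 CPM, above all 5 other libraries. The share of all genes with that split was not counted. Group means were 11.6 ± 1.51 CPM (SD, n = 2), 11.1 ± 0.658 CPM (SD, n = 3) and 18.1 ± 0.222 CPM (SD, n = 3). The log2 fold change with sgEZH2-2 was 0.65 (SE 0.11, adjusted p = 0.00455), and with sgEZH2-1 it was -0.058 (adjusted p = 0.761, 95% interval -0.28 to 0.16). The difference between the guides was 0.71 (SE 0.097, adjusted p = 0.000885). PCDH19 kept the calls with sgEZH2-2 and between the guides under every alternative run. With both guides pooled it did not pass (0.34, adjusted p = 0.572).

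**Figure D3:**
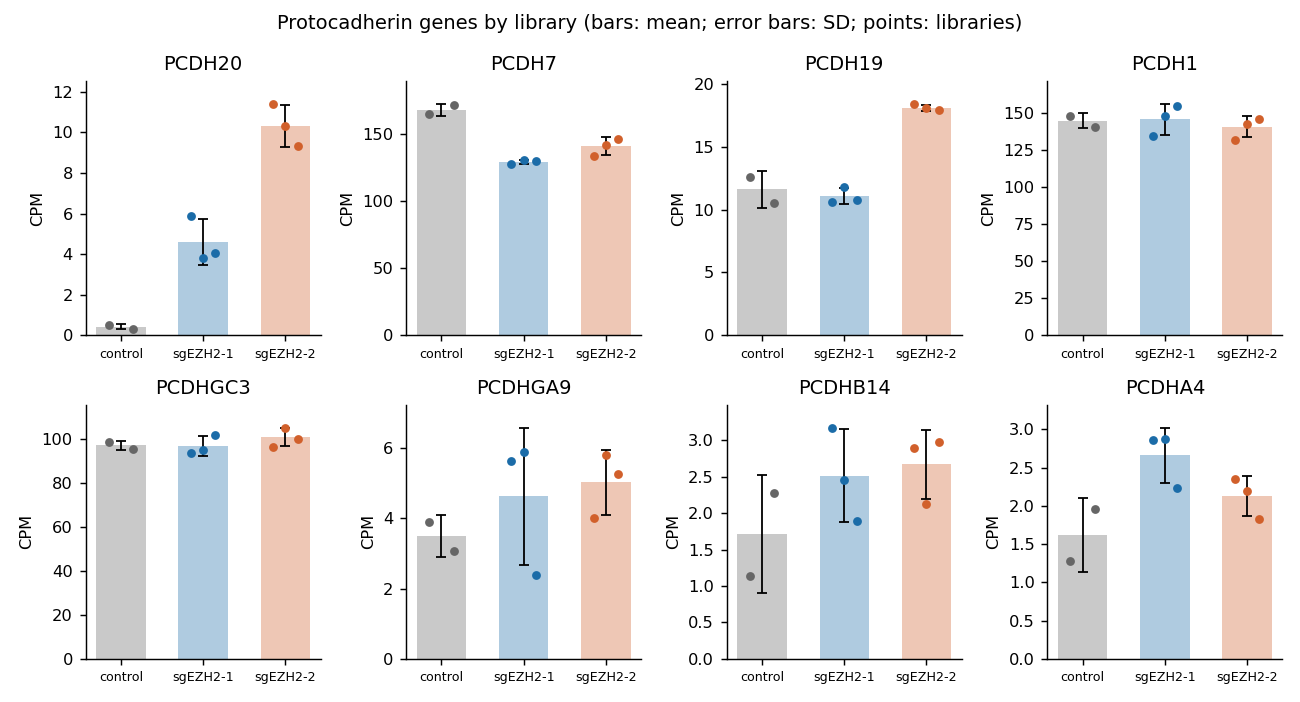
Level in CPM of 8 protocadherin genes in each library (points), with group means (bars) and SD (error bars) for 2 control, 3 sgEZH2-1 and 3 sgEZH2-2 libraries; each panel has its own axis from 0. PCDH20 rises in steps from 0.412 to 4.59 and 10.3 CPM, PCDH7 is lower in all 6 guide libraries, and PCDH19 is higher with sgEZH2-2 alone.

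PCDH1 and PCDHGC3, the other abundant members, did not pass in any comparison, and their intervals were narrow. PCDH1, a delta protocadherin of epithelia including skin and airway, lies on chromosome 5 beyond the gamma cluster (141853111 to 141879246, minus strand, GRCh38). It stood at 148 and 141 CPM in the controls, 135, 148 and 155 CPM with sgEZH2-1, and 132, 143 and 146 CPM with sgEZH2-2, and all 3 groups overlapped. Its log2 fold change was -0.014 for both guides (adjusted p = 0.952), with a 95% interval of -0.15 to 0.12. PCDHGC3, a C-type gamma protocadherin known from neurons and epithelia, lies at 141475947 to 141512979 (plus strand). It stood at 98.7 and 95.7 CPM in the controls, 93.8, 95.3 and 102 CPM with sgEZH2-1, and 96.6, 105 and 100 CPM with sgEZH2-2. Those groups overlapped too (log2 fold change 0.024, adjusted p = 0.905, 95% interval -0.10 to 0.15).

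PCDH9 and PCDH11Y, the remaining non-clustered genes tested, are both delta protocadherins. PCDH9 averaged 0.826 CPM in controls, 1.39 with sgEZH2-1 and 1.22 with sgEZH2-2 (log2 fold change 0.67 for both guides, adjusted p = 0.538). PCDH11Y averaged 0.91, 1.4 and 1.01 CPM (0.4, adjusted p = 0.698); its near-identical copy PCDH11X had 4 counts in all, so the split between them is uncertain. Of the non-clustered genes not tested, PCDH18, a delta protocadherin, had 59 counts over all libraries, and PCDH12, a protocadherin of endothelium, had 44. PCDH15, part of the tip links of hair cells, had 4 counts. The delta protocadherins PCDH8, PCDH10 and PCDH17, which are often methylated in tumours, had 0 counts in every library of every group.

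None of the 13 clustered genes tested passed in any of the 4 comparisons, with edgeR's quasi-likelihood test or with DESeq2. At an unadjusted p under 0.05, edgeR gave 0 of 13 for both guides, 1 for sgEZH2-1 (PCDHA4), 0 for sgEZH2-2 and 0 between the guides. The median log2 fold change for both guides was 0.075 over the 4 beta genes and 0.067 over the 8 gamma genes, against -0.004 over all genes. Most of these genes lie near 1 CPM, and their intervals were wide, except that of PCDHGC3.

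PCDHA4, the leading alpha gene, had 1.28 and 1.96 CPM in the controls, 2.86, 2.87 and 2.24 CPM with sgEZH2-1, and 2.35, 2.2 and 1.83 CPM with sgEZH2-2. Every sgEZH2-1 library was above both controls, a split whose share over all genes was not counted. The sgEZH2-2 group overlapped the controls. Its log2 fold change was 0.7 with sgEZH2-1 (SE 0.26, adjusted p = 0.0845, 95% interval 0.19 to 1.22) and 0.39 with sgEZH2-2 (adjusted p = 0.444). The summed level of the alpha cluster, which PCDHA4 carries, was 1.63 and 2.09 CPM in the controls, 3.32, 3.49 and 2.45 CPM with sgEZH2-1, and 2.83, 2.91 and 2.36 CPM with sgEZH2-2. The 6 guide values lay above both controls, as did those of 10.2% of all genes tested. The sum was not tested and is not separate from the result for PCDHA4.

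In the beta cluster PCDHB14 was the highest gene. It averaged 1.71 ± 0.81 CPM (SD, n = 2) in controls, 2.51 ± 0.639 (SD, n = 3) with sgEZH2-1 and 2.67 ± 0.471 (SD, n = 3) with sgEZH2-2, and its log2 fold change of 0.59 for both guides did not pass (adjusted p = 0.398, 95% interval -0.03 to 1.2). PCDHB9 averaged 1.36, 1.61 and 1.83 CPM in the same order of groups, a log2 fold change of 0.33 (adjusted p = 0.572). PCDHB1, the beta gene whose promoter lacks the shared word, averaged 1.52, 1.24 and 1.03 CPM (-0.42, adjusted p = 0.521). PCDHB13 averaged 1.2, 0.87 and 1.24 CPM (-0.19, adjusted p = 0.859). The 4 genes thus had estimates on both sides of 0. Summed over the 16 beta genes, the level was 5.75 and 6.78 CPM in the controls, 8.57, 6.57 and 6.79 CPM with sgEZH2-1, and 8.7, 7.87 and 8.39 CPM with sgEZH2-2. The sgEZH2-1 sums overlapped the controls and the sgEZH2-2 sums lay above them, and the sums were not tested.

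In the gamma cluster PCDHGA9 and PCDHGB7 followed PCDHGC3. PCDHGA9 had 3.91 and 3.06 CPM in the controls, 5.64, 5.88 and 2.38 CPM with sgEZH2-1, and 4.0, 5.82 and 5.26 CPM with sgEZH2-2, a log2 fold change of 0.47 (adjusted p = 0.53, 95% interval -0.16 to 1.1). PCDHGB7 had 4.69 and 3.98 CPM in the controls, 3.71, 2.26 and 4.34 CPM with sgEZH2-1, and 5.66, 2.04 and 5.19 CPM with sgEZH2-2 (-0.16, adjusted p = 0.884). Both genes varied more among guide libraries of a group than between the group means. PCDHGA10 averaged 2.72, 2.39 and 2.3 CPM (-0.22, adjusted p = 0.784), and PCDHGB2 averaged 0.951, 0.961 and 1.52 CPM (0.37, adjusted p = 0.798). The remaining tested members, PCDHGA1, PCDHGB1 and PCDHGA11, averaged 0.329 to 1.08 CPM in each group. Without PCDHGC3 the gamma genes summed to 15.1 and 14.5 CPM in the controls, 17.3, 13.8 and 12.7 CPM with sgEZH2-1, and 19.7, 14.9 and 19.1 CPM with sgEZH2-2, so both guide groups overlapped the controls.

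**Figure D4:**
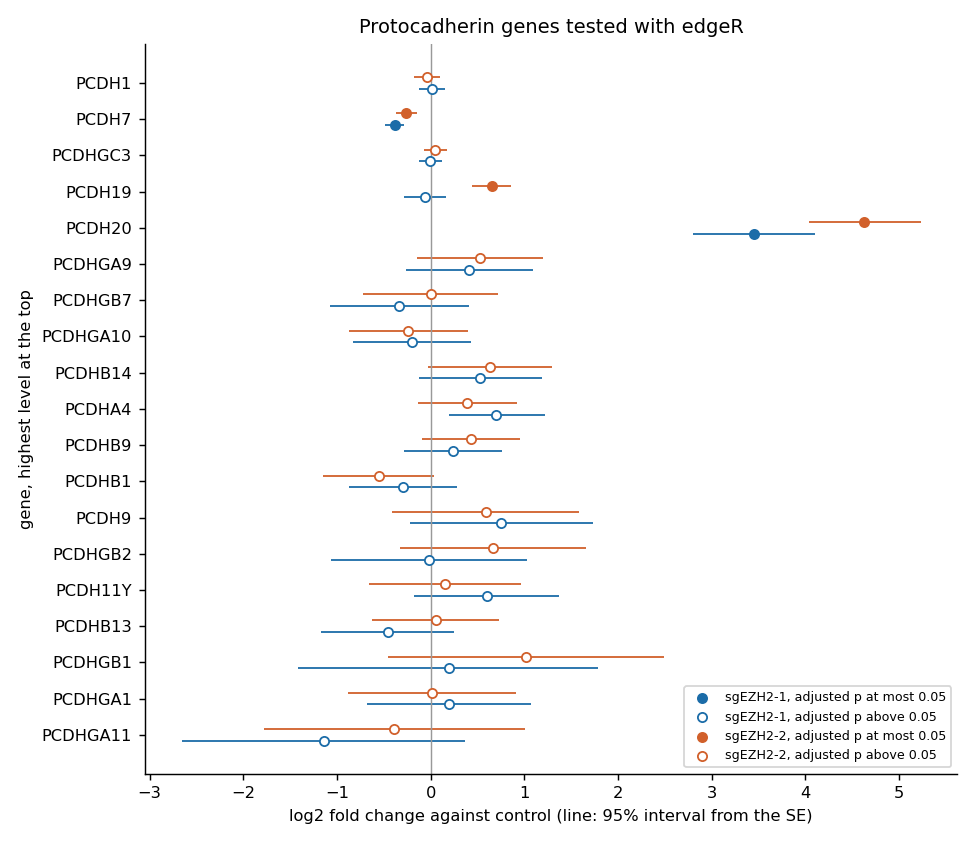
Log2 fold change against control for the 19 tested genes, ordered by level with the highest at the top, for sgEZH2-1 (blue) and sgEZH2-2 (orange); lines span 1.96 SE each way and filled points have an adjusted p of at most 0.05. PCDH20 stands apart at 3.45 and 4.63, PCDH7 lies below 0 with both guides, and the open points of the clustered genes scatter around 0, with wide lines for all of them but PCDHGC3.

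Below the filter, 30 genes had some counts, with at most 11 in any library. Of these, 10 had counts in guide libraries and none in the controls, and 1 (PCDHGA7) had its only count in a control. There were 6 guide libraries and 2 controls, and the same split over all genes below the filter was not counted. PCDHB2 was the most frequent of the 10, with 0 and 0 counts in the controls, 5, 4 and 2 with sgEZH2-1, and 2, 5 and 1 with sgEZH2-2. Its mean over the guide libraries was 2.3 times a floor of 3 counts over both controls (0.102 CPM). This ratio leaves out the error of the guide counts, and the 10 genes were picked for their 0 counts in the controls. In an edgeR fit without the filter on low counts PCDHB2 did not pass (adjusted p = 0.124 for both guides, 17068 genes). PCDHB15 and PCDHGB3, with 16 guide counts each, had means of 1.94 and 1.88 times the same floor. They did not pass in that fit either (adjusted p = 0.272 and 0.339). PCDHGA2 had 9 guide counts, with a mean of 1.05 times the floor. PCDHB8, PCDHB16, PCDHB5, PCDHA7, PCDHGC5 and PCDH15 had 1 to 5 guide counts, too few for a ratio.

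The number of beta genes with a count was 9 and 7 in the controls, 11, 9 and 11 with sgEZH2-1, and 11, 14 and 12 with sgEZH2-2. For the whole family it was 35 and 34 in the controls, 36, 35 and 37 with sgEZH2-1, and 40, 40 and 41 with sgEZH2-2. Guide libraries held 12.6 M to 14.7 M counts and controls 14.3 M and 15.5 M. These numbers were not tested, and the number of all genes with a count in each library was not set beside them.

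The pathway lists are read against all genes tested, of which 4.36% passed for both guides, 20.8% with sgEZH2-1, 8.68% with sgEZH2-2 and 21.9% between the guides. Among genes that act on protocadherin promoters, none of 11 genes of CTCF and cohesin passed for both guides with edgeR (0 at an unadjusted p under 0.05, 0 with DESeq2), and their median log2 fold change was 0.007. STAG1, a cohesin subunit, rose with sgEZH2-1 (0.24, adjusted p = 0.0113) and was the only one to pass there. Among 15 genes of DNA methylation and repression, 0 passed for both guides (0 at an unadjusted p under 0.05, 0 with DESeq2), with a median of -0.039. EHMT2, a histone H3 lysine 9 methyltransferase, fell with sgEZH2-1 (-0.32, adjusted p = 0.0433). DNMT3A, a de novo DNA methyltransferase, was higher with sgEZH2-2 than with sgEZH2-1 (0.33, adjusted p = 0.0386), a call that DESeq2 did not make.

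Partners of the cytoplasmic tails were counted next. The WAVE complex, which several delta protocadherins bind and which drives branched actin growth, had 9 tested genes of 11. With both guides 2 rose and 0 fell (4.36% of all genes passed), with a median of 0.024. With sgEZH2-1 2 rose and 2 fell (20.8% of all genes), and with sgEZH2-2 2 rose and 0 fell (8.68%). CYFIP2 averaged 4.19 ± 0.397 CPM in controls (SD, n = 2). It rose to 12.1 ± 0.998 CPM with sgEZH2-1 (SD, n = 3) and to 19.6 ± 1.58 CPM with sgEZH2-2 (SD, n = 3), a log2 fold change of 1.92 for both guides (adjusted p = 0.0049). Its group means thus stood in the same order as those of PCDH20, and CYFIP2 also differed between the guides (0.7, adjusted p = 0.00137). WASF3 rose from 12.3 to 18.1 and 18.2 CPM (0.56, adjusted p = 0.0111). CYFIP1, the close relative of CYFIP2, and WASF2 fell with sgEZH2-1 alone (-0.41, adjusted p = 0.000325, and -0.22, adjusted p = 0.0227).

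Of 11 kinases and other tail partners, 0 passed for both guides with edgeR, 1 (FYN) at an unadjusted p under 0.05 and 1 with DESeq2. With sgEZH2-1 2 rose and 0 fell (20.8% of all genes passed). With sgEZH2-2 0 passed (1 at an unadjusted p under 0.05, 0 with DESeq2). Between the guides 1 was higher with sgEZH2-2 and 2 were lower (21.9% of all genes). FYN, a Src-family kinase, averaged 0.572 CPM in controls, 3.77 with sgEZH2-1 and 1.45 with sgEZH2-2. It rose with sgEZH2-1 (2.69, adjusted p = 0.000338), and its rise with sgEZH2-2 fell just short of the threshold (1.33, adjusted p = 0.0504). FYN was lower with sgEZH2-2 than with sgEZH2-1 (-1.36, adjusted p = 0.00374). Like PCDH20 it was lowest in the controls, but the order of the guides was the reverse. Of the 7 genes of ADAM10 and gamma-secretase, the enzymes that cleave protocadherins at the membrane, 0 passed for both guides (3 at an unadjusted p under 0.05, 0 with DESeq2). PSENEN fell with sgEZH2-1 (-0.26, adjusted p = 0.0201) and APH1B rose with sgEZH2-2 (0.85, adjusted p = 0.0426); DESeq2 made neither call. Of 8 tested FAT, Dachsous and CELSR cadherins, 0 passed for both guides (0 at an unadjusted p under 0.05, 0 with DESeq2). With sgEZH2-2 DCHS2 rose (0.89, adjusted p = 0.0345) and FAT4 fell (-0.72, adjusted p = 0.0153), and DESeq2 made the call for FAT4 only. Between the guides 2 were higher with sgEZH2-2 and 1 was lower.

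Since protocadherins are best known from neurons, markers of other cell types were summed per library. The 12 neuron markers summed in the controls to 40.1 to 40.5 CPM, with sgEZH2-1 to 76.9 to 89.6 CPM and with sgEZH2-2 to 42.3 to 45.5 CPM. MAP2 made up most of the difference, with a rise from 25.8 to 64.7 CPM with sgEZH2-1 (1.33, adjusted p = 6.18e-06), and SNAP25, STMN2, ELAVL3, ELAVL4 and NEFM had 0 counts in every library. That order of groups differs from those of PCDH20 and PCDH19, and the part of the neuron markers in those results was not tested. The 8 markers of Schwann cells and melanocytes summed to 28.9 to 30.8, 30.6 to 33.1 and 27.9 to 29.8 CPM, with SOX10, TYR and DCT among those at 0. Most of that sum was MITF, at 24.5 to 30.6 CPM over all libraries. The 9 fibroblast markers summed to 6.13 to 7.24, 5.02 to 8.89 and 11.0 to 14.0 CPM, with COL1A2 and POSTN at 0. Nearly all of that sum was COL1A1, the only fibroblast marker with enough counts to test, which rose with sgEZH2-2 (0.88, adjusted p = 0.0437), as PCDH19 did; its part in that result was not tested. The 6 endothelial markers summed to 177 to 184, 76.6 to 81.7 and 143 to 160 CPM, nearly all of it CDH5, with KDR at 0. Among the endothelial markers CDH5 alone passed, lower with each single guide, and none passed for both guides pooled. PCDH7 was also lower with each guide, and the part of CDH5 in that result was not tested. The 6 leukocyte markers summed to 1.96 to 2.49, 1.89 to 3.32 and 2.29 to 3.24 CPM, with CD3E among those at 0. The 12 keratinocyte markers summed to 3850 to 4060, 3330 to 3990 and 3350 to 3520 CPM. Of the 12, 0 passed for both guides with edgeR (7 at an unadjusted p under 0.05, 0 with DESeq2). With sgEZH2-1 3 rose and 1 fell, with sgEZH2-2 0 rose and 5 fell, and between the guides 2 were higher with sgEZH2-2 and 4 lower; DESeq2 called the same number in each. TP63, the master regulator of squamous epithelium, was the marker that fell with sgEZH2-1, from 208 and 233 CPM to 119, 105 and 104 CPM, and stood at 195, 180 and 183 CPM with sgEZH2-2. These markers moved in the same single-guide comparisons as PCDH20, PCDH7 and PCDH19, and their part in those results was not tested.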

How the data were processed

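The RNA-seq libraries used the TruSeq Stranded mRNA chemistry, per the labels' protocols. The authors deposited whole-number read counts per gene without normalization. FastQC, STAR, DESeq and genome build hg38 are named, per the submitters' processing notes; the counting tool, strand setting, annotation and all versions were not given in the sources used here. Columns name each library's group and no replicate number, so libraries are called by their order within a group. Counts were analysed with edgeR 4.0.16 in R 4.3.3: TMM scaling, filterByExpr at a minimum count of 10 (13124 genes left), and the two-sided quasi-likelihood F test with Benjamini-Hochberg adjustment over all genes tested and a threshold of 0.05. Adjusted p-values come from this test unless DESeq2 (1.42.0) is named. The pooled comparison was a fit of 2 levels; single-guide comparisons were contrasts of a fit of 3 groups. SE were derived from the F statistic. Floors and ceilings for 0 counts cover counting error only, since reads carry no molecular identifiers. Coordinates are from GENCODE release 29. Members called in any comparison or averaging at least 1 CPM were to be named with values, and up to 4 genes of each further list. Genes outside this rule (those named for 0 or low counts, FAT4 and TP63) were chosen after their values were seen. The members, the gene lists and the rule were chosen with earlier results of these data known. The code was tested on simulated data. Alternatives were another scaling, DESeq2, no filter, leaving out each library, and a contrast of 3 groups for the pooled comparison. Values of some cell type markers are not reported here.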

Additional observations from a re-analysis of the deposited data

Results flagged for a closer look

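PCDH19 differed between the guides, by 0.71 on the log2 scale (sgEZH2-2 higher). PCDH20 also differed between the guides, by 1.18, with the same guide higher. In PCDHGA10 a single library, the first with sgEZH2-1, lay far from the rest at 3.71 CPM, among 6 guide libraries; chance flags about 1 in 20 such groups.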

How the results depend on the processing

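No paired analysis was possible because the columns carry no replicate numbers. Over 64 single-gene results, 679 of 720 alternative values kept their direction and their side of the threshold, 10 lost the call and 31 changed sign. The 10 belong to PCDH20 and PCDH7 and stand beside their results. No called result changed sign. Leaving out each library in turn gave 0 to 2 protocadherins called for both guides (2 with all libraries). Over all genes it gave 145 to 509 for both guides (572), 1373 to 2591 for sgEZH2-1 (2726), 521 to 1365 for sgEZH2-2 (1139) and 1521 to 2995 between the guides (2874). Taking the mean of both guides from the fit of 3 groups gave 1612 (1010 higher, 602 lower), in which the same number of protocadherins, 2, passed.

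The sign changes, all in results that did not pass, came mostly from leaving out a library. For both guides PCDH1 ranged from -0.0503 to 0.0275 and PCDHB13 from -0.433 to 0.108. For sgEZH2-1 the ranges were -0.022 to 0.0687 for PCDH1, -0.188 to 0.0848 for PCDH19, -0.649 to 0.0106 for PCDHGA10, -0.683 to 0.452 for PCDHGB2 and -0.027 to 0.025 for PCDHGC3. For sgEZH2-2 they were -0.0792 to 0.0122 for PCDH1, -0.118 to 0.51 for PCDH11Y, -0.197 to 0.345 for PCDHB13 and -0.239 to 0.327 for PCDHGB7. Between the guides they were -0.567 to 0.216 for PCDH9, -0.0692 to 0.294 for PCDHB14, -0.235 to 0.412 for PCDHGA10 and -0.202 to 0.333 for PCDHGA9. Relative log expression scaling gave 0.0023 for PCDHGC3 with sgEZH2-1. DESeq2 gave 0.00243 for PCDHGC3 and 0.00562 for PCDHGB2 with sgEZH2-1, and -0.00108 for PCDHGB7 with sgEZH2-2. The cause was not tested. With 2 controls and 12.6 M to 15.5 M counts per library, the depth limits what can be said of the 47 genes below the filter: in the edgeR fit without the filter none of the 30 with counts passed for both guides, and 3 (PCDHB2, PCDHB15 and PCDHGB3) had an unadjusted p under 0.05.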
